A study of Mus musculus with 12 samples.

Results

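The genes described here are 8 that serve the germline and meiosis, Tdrd12, Sycp3, Sycp1, Ddx4, Dazl, Mael, Hormad1 and Tex19.1, out of 19938 genes with a probe set of their own on 12 Affymetrix Mouse Gene 1.0 ST arrays. They were chosen for their known roles, with earlier results of these data known, so their counts describe them and are no test of germline genes at large. For each, the probe set that carries only that symbol and has the highest mean over the 12 arrays was read, and all 8 were measured. The arrays cover 5 groups of mouse cells. Astrocyte-derived induced pluripotent stem cells (iPSCs) with the Sox1-GFP reporter (Sox1+/-) had 2 arrays, and the line iPS-MEF-Ng-20D-17, made from mouse embryonic fibroblasts (MEFs) and carrying the Nanog-GFP-IRES-Puro reporter, also had 2. GFP-positive cells sorted on day 6 after retroviral delivery of Oct4, Klf4, Sox2 and c-Myc to GFP-negative astrocytes had 3 arrays and are called day 6 cells. Neural stem cells of the embryonic telencephalon (embryonic day 12.5 to 14.5) had 2 arrays, and GFP-negative astrocytes cultured from the cortex at postnatal day 3 had 3, both from the Sox1-GFP reporter. Every group but the MEF iPSCs thus carries the Sox1 reporter allele, and the MEF iPSCs are a single established line. The labels do not give the number of astrocyte iPSC lines.

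The astrocytes grew in medium with serum, the neural stem cells in serum-free medium with FGF and EGF, the cells under reprogramming in embryonic stem cell medium with LIF, and both iPSC groups on growth-arrested MEF feeders with LIF, so culture goes with group. Submitters call the replicates biological, and nothing says that each came from its own culture, so the p-values cover only the spread from sample to sample, part of which may be technical. Across probe sets, arrays of the same group correlated at Pearson's r of 0.992 to 0.996. The labelled cell types were checked against 6 markers each. All 6 pluripotency markers lay above the array median (6.61 to 6.71 on the log2 scale) on every iPSC array, as did 5 of the 6 astrocyte markers on every astrocyte array and all 6 neural stem cell markers on every neural stem cell array. The same 6 neural stem cell markers also passed on every astrocyte array. The 8 fibroblast markers summed to log2 levels of 64.64 and 71.05 in astrocyte iPSCs, 63.66 and 63.17 in MEF iPSCs, and 52.19 to 53.07 in day 6 cells, against 55.01 and 55.90 in neural stem cells and 60.09 to 62.59 in astrocytes.

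Germ cells keep transposons silent with Piwi proteins and their small RNAs, the piRNAs, and they carry out meiosis, in which paired chromosomes are held together by the synaptonemal complex. Many genes of both programmes are kept silent in body cells by DNA methylation of their promoters and by a Polycomb-related complex that holds E2F6, MGA and MAX. Mouse pluripotent stem cells in culture are known to transcribe some of them without being germ cells.

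The start regions of the members were read because MGA with MAX can bind the E-box CACGTG and E2F6 can bind GCGGGAA. Both strands of the 250 bases before the most upstream start that the RefSeq promoter table (GRCm38.p6) lists for each gene were searched. For 2 members on the minus strand the RefSeq gene span reaches farther upstream than that start, to position 112652633 in Ddx4, whose window thus lies inside the gene, and to 35537784 in Tdrd12, whose window lies partly inside it. The E-box reads the same on both strands, and no match of one motif overlapped the other. The E-box was present in 5 of the 8 members, Sycp3, Sycp1, Ddx4, Mael and Hormad1, and in 6.04% of the 27025 genes of the promoter table. GCGGGAA was present in 3 of 8, Sycp3, Ddx4 and Hormad1, and in 3.86% of all. These 3 held both motifs, as did 0.322% of all. Among the 15614 genes of that table measured on the arrays, the shares were 7.04% for the E-box, 5.36% for GCGGGAA and 0.455% for both. Tdrd12, Dazl and Tex19.1 had neither in this window. Each motif holds a CpG, a C followed by a G, and the shares of all genes were not matched to the members for CpG content. A match is a description of letters, with no measure of binding. The 3 regions with both motifs are shown with that of Tdrd12, the member with the largest rise, with matches in capitals.

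Sycp3 (chr10:88459337-88459586, plus strand): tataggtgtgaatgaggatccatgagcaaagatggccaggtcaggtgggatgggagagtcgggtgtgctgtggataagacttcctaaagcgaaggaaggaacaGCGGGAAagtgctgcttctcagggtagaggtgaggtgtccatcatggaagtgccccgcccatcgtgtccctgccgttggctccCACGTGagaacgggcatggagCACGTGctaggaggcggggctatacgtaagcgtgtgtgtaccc
Ddx4 (chr13:112652311-112652560, minus strand): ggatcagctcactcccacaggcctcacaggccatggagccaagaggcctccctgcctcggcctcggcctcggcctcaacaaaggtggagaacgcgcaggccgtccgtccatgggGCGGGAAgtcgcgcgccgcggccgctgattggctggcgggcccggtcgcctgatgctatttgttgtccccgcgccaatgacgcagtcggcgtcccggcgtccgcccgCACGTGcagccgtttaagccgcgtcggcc
Hormad1 (chr3:95559427-95559676, plus strand): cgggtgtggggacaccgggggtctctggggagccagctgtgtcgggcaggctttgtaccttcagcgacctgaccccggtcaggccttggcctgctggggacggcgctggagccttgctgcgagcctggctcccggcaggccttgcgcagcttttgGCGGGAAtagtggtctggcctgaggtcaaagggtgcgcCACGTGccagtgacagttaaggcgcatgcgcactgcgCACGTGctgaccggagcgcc
Tdrd12 (chr7:35537745-35537994, minus strand): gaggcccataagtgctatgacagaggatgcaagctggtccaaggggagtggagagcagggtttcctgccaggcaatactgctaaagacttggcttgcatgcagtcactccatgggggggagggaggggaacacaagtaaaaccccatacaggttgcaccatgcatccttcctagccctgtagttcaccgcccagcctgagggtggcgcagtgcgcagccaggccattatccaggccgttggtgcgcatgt

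Counted from that listed start, with the base before it at -1, the E-boxes began at -64 and -43 in Sycp3, at -29 in Ddx4 and at -57 and -20 in Hormad1. The single E-box of Sycp1 began at -94 and that of Mael at -223. GCGGGAA lay farther from that start than the E-boxes in all 3 genes that held both, at -147 in Sycp3, -136 in Ddx4 and -95 in Hormad1. The 250 bases held 31 CpG dinucleotides in Ddx4, 20 in Dazl, 19 in Hormad1, 18 in Mael, 17 in Sycp1, 15 in Tex19.1, 12 in Sycp3 and 5 in Tdrd12, against a median of 6 over all promoters and an upper quartile of 16. The 8 genes lie on 7 autosomes, with Hormad1 and Sycp1 on the same one, chromosome 3.

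All 8 members were low and level in day 6 cells, neural stem cells and astrocytes, and higher in both iPSC groups. On the 8 arrays that are not of iPSCs, the members ran from 4.55 to 5.86 on the log2 intensity scale, all under the array median. Every member but Mael was also under it on both MEF iPSC arrays. Sycp1, Ddx4 and Dazl were under it on both astrocyte iPSC arrays too. A gene was called when its Benjamini-Hochberg adjusted p in limma, over all 19938 genes, was under 0.05 and its log2 fold change was at least 1 in size. Astrocyte iPSCs over astrocytes gave 6 of 8 members called higher, where 9.44% of all genes were. The median log2 fold change was 1.71 over the members and 0.01 over all genes. In this bulk RNA, fewer cells of a type and less RNA per cell cannot be told apart.

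**Figure D1:**
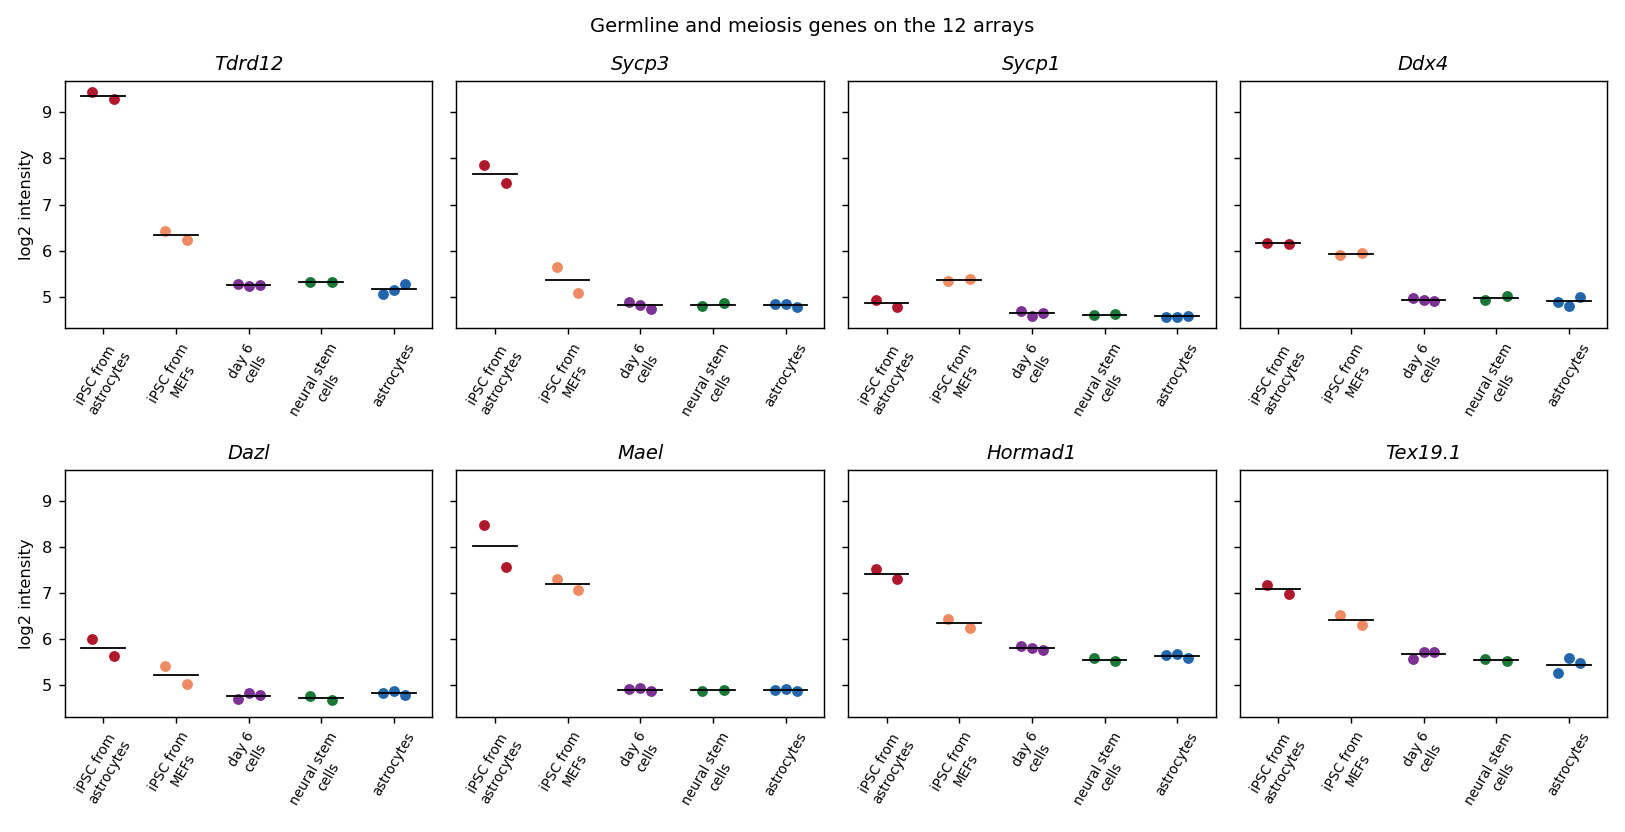
Log2 intensity of each member (vertical axis) on each of the 12 arrays, by group (horizontal axis); points are arrays and bars are group means (n = 2, 2, 3, 2 and 3 from left to right). Tdrd12 reaches 9.44 in astrocyte iPSCs, while its day 6, neural stem cell and astrocyte arrays all lie between 5.06 and 5.32.

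Among the genes of transposon silencing, Tdrd12, a Tudor domain protein with helicase motifs that takes part in making secondary piRNAs, had the largest difference. Its log2 intensity was 9.44 and 9.29 in astrocyte iPSCs, 6.43 and 6.23 in MEF iPSCs, 5.28, 5.22 and 5.26 in day 6 cells, 5.32 and 5.32 in neural stem cells, and 5.06, 5.15 and 5.27 in astrocytes. The iPSC groups overlapped neither each other nor any other group. Astrocyte iPSCs were higher than astrocytes by 4.21 ± 0.08 (SE, limma adjusted p = 2.4e-11), an 18.4-fold difference in intensity, and MEF iPSCs by 1.17 ± 0.08 (limma adjusted p = 2.6e-07). By the size of the difference between astrocyte iPSCs and astrocytes, Tdrd12 ranked 32 from the top of 19938 genes.

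Mael, the mouse Maelstrom protein of the piRNA granules, was the other strongly raised member of this kind. It stood at 8.48 and 7.58 in astrocyte iPSCs, 7.31 and 7.08 in MEF iPSCs, 4.91, 4.94 and 4.87 in day 6 cells, 4.89 and 4.91 in neural stem cells, and 4.91, 4.92 and 4.88 in astrocytes. Mael rose by 3.13 ± 0.19 in astrocyte iPSCs over astrocytes (limma adjusted p = 6.5e-08) and by 2.29 ± 0.19 in MEF iPSCs (limma adjusted p = 9.1e-07). The astrocyte iPSC arrays were 0.90 apart, the widest gap between 2 arrays of a group for any member.

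Ddx4, the Vasa RNA helicase of germ granules, had 6.17 and 6.15 in astrocyte iPSCs, 5.91 and 5.94 in MEF iPSCs, 4.97, 4.93 and 4.90 in day 6 cells, 4.93 and 5.01 in neural stem cells, and 4.88, 4.81 and 4.997 in astrocytes. Both iPSC groups lay above every other array, and the arrays within each agreed to 0.03 or better. Ddx4 rose by 1.27 ± 0.07 in astrocyte iPSCs over astrocytes (limma adjusted p = 2.7e-08) and by 1.03 ± 0.07 in MEF iPSCs (limma adjusted p = 1.5e-07). The call in MEF iPSCs was lost without astrocytes replicate 2, at 0.99.

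Tex19.1, a mammal-specific protein needed for transposon control in germ cells and placenta, had 7.18 and 6.99 in astrocyte iPSCs, 6.52 and 6.31 in MEF iPSCs, 5.58, 5.71 and 5.72 in day 6 cells, 5.57 and 5.53 in neural stem cells, and 5.26, 5.60 and 5.48 in astrocytes. It rose by 1.64 ± 0.11 in astrocyte iPSCs over astrocytes (limma adjusted p = 1.0e-07). In MEF iPSCs the difference was 0.97 ± 0.11 (limma adjusted p = 9.0e-06), just under the fold limit. It passed that limit without MEF iPSC replicate 2, at 1.07, and without astrocytes replicate 2, at 1.05.

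Of the chromosome axis and synaptonemal complex, Sycp3, a core protein of the axial elements, had 7.87 and 7.46 in astrocyte iPSCs, 5.64 and 5.08 in MEF iPSCs, 4.88, 4.82 and 4.73 in day 6 cells, 4.79 and 4.87 in neural stem cells, and 4.84, 4.84 and 4.77 in astrocytes. The astrocyte iPSC arrays were far above all others, and the MEF iPSC arrays lay just over the remaining groups without touching them. Sycp3 rose by 2.85 ± 0.15 in astrocyte iPSCs over astrocytes (limma adjusted p = 2.0e-08). The difference in MEF iPSCs was 0.55 ± 0.15 (limma adjusted p = 0.0091) and was not called, and without MEF iPSC replicate 1 or 2 it was 0.27 or 0.82.

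Hormad1, a HORMA domain protein that loads on unsynapsed meiotic axes, had 7.54 and 7.30 in astrocyte iPSCs, 6.44 and 6.25 in MEF iPSCs, 5.86, 5.81 and 5.77 in day 6 cells, 5.59 and 5.52 in neural stem cells, and 5.65, 5.68 and 5.60 in astrocytes. It rose by 1.78 ± 0.08 in astrocyte iPSCs over astrocytes (limma adjusted p = 8.6e-09), and the difference in MEF iPSCs was 0.70 ± 0.08 (limma adjusted p = 1.9e-05). Hormad1 is the only member with another probe set of its own, named for it by the platform annotation and with a place in the genome that was not checked. That one gave 7.69 and 7.54 in astrocyte iPSCs, 5.63 and 5.15 in MEF iPSCs, and 4.46 to 4.59 on the 8 other arrays. On it the rise in astrocyte iPSCs over astrocytes was 3.06 ± 0.12, in place of 1.78, and the difference in MEF iPSCs was 0.83 ± 0.12.

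Sycp1, the transverse filament protein that bridges paired axes, had the smallest difference in astrocyte iPSCs. Its values were 4.92 and 4.78 in astrocyte iPSCs, 5.35 and 5.39 in MEF iPSCs, 4.69, 4.59 and 4.65 in day 6 cells, 4.597 and 4.61 in neural stem cells, and 4.57, 4.55 and 4.59 in astrocytes. It was not called in either iPSC group over astrocytes, at 0.28 ± 0.06 (limma adjusted p = 0.0027) in astrocyte iPSCs and 0.80 ± 0.06 (limma adjusted p = 6.5e-07) in MEF iPSCs. Sycp1 was the only member of the 8 whose level was lower in astrocyte iPSCs than in MEF iPSCs.

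Dazl, an RNA-binding protein that licenses germ cells for meiosis, had 6.01 and 5.64 in astrocyte iPSCs, 5.41 and 5.02 in MEF iPSCs, 4.71, 4.82 and 4.78 in day 6 cells, 4.76 and 4.67 in neural stem cells, and 4.83, 4.88 and 4.79 in astrocytes. Its difference in astrocyte iPSCs over astrocytes, 0.99 ± 0.12 (limma adjusted p = 2.5e-05), fell just short of the fold limit. The limit was passed without astrocyte iPSC replicate 2, at 1.17, and without astrocytes replicate 2, at 1.01. In MEF iPSCs the difference was 0.38 ± 0.12 (limma adjusted p = 0.021), and without MEF iPSC replicate 1 or 2 it was 0.19 or 0.58.

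MEF iPSCs over astrocytes gave 3 of 8 members called higher, Tdrd12, Ddx4 and Mael, where 8.71% of all genes were. The median log2 fold change of the members was 0.88, against 0.02 over all genes. All 8 members had an adjusted p under 0.05 in this comparison, as in that of the astrocyte iPSCs, so the fold limit decided which were called. By adjusted p alone, 10017 of all 19938 genes differed either way in MEF iPSCs over astrocytes, and 10173 in astrocyte iPSCs over astrocytes. These comparisons share the astrocyte arrays. Among the iPSC arrays, fibroblast markers were also higher than in astrocytes, with 4 of 8 called higher and 1 lower in each iPSC group, and the part of feeder cells in the members' values was not tested.

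**Figure D2:**
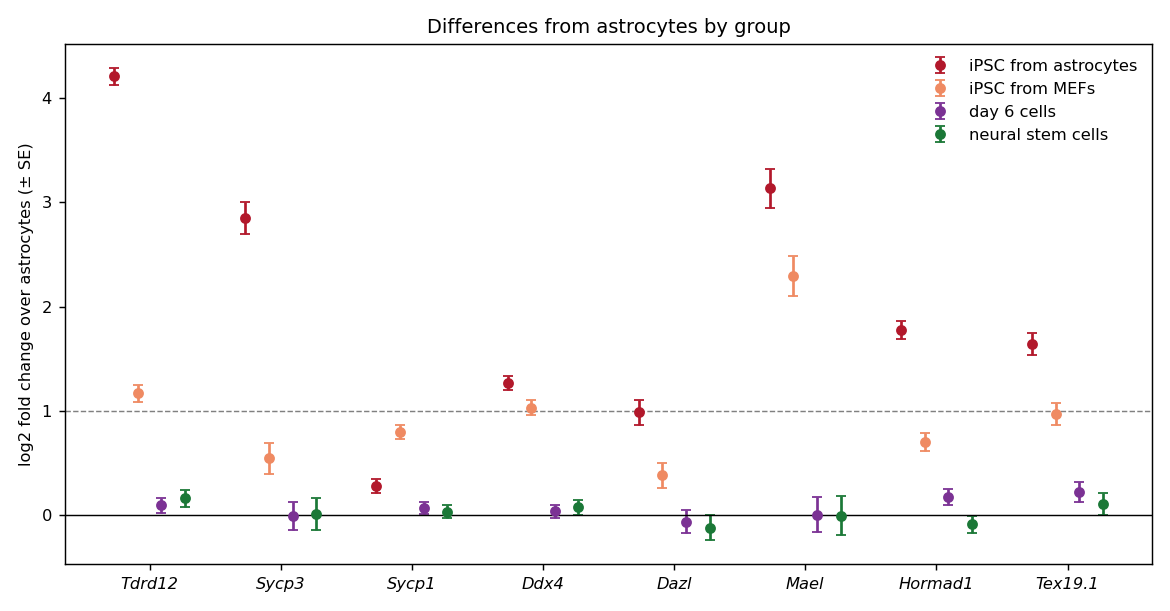
Log2 fold change over astrocytes (vertical axis, ± limma SE) of each member in astrocyte iPSCs, MEF iPSCs, day 6 cells and neural stem cells; the dashed line marks the fold limit of 1. Astrocyte iPSCs reach 4.21 for Tdrd12, whereas all day 6 and neural stem cell points lie between -0.12 and 0.23.

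Day 6 cells were compared with astrocytes to see whether the germline genes had moved by the time of the sort. None of the 8 was called in limma, where 16.9% of all genes were called either way, and 2 had an unadjusted p under 0.05, Hormad1 (0.17 ± 0.07) and Tex19.1 (0.23 ± 0.09). Their adjusted p-values were 0.080 and 0.071. Over the 8 members the log2 fold changes ran from -0.06 to 0.23, and the highest upper bound of the 95% intervals was 0.43. Sycp3 and Mael, which differed by 2.85 and 3.13 between astrocyte iPSCs and astrocytes, were at -0.0042 ± 0.13 and 0.01 ± 0.17 in day 6 cells. In the same cells 5 of 10 pluripotency genes were called higher than in astrocytes, among them Pou5f1 (Oct4), one of the delivered factors, at 1.86 ± 0.16.

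The neural stem cells differed from astrocytes in none of the 8 members in limma, where 14.6% of all genes were called, and none had an unadjusted p under 0.05. Log2 fold changes were between -0.12 and 0.16. Day 6 cells over neural stem cells likewise had 0 of 8 called, against 8.88% of all genes, with Hormad1 the only member with an unadjusted p under 0.05 (0.26 ± 0.08, limma adjusted p = 0.029).

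Against the day 6 cells, the astrocyte iPSCs had 7 of 8 members called higher, all but Sycp1, where 3.29% of all genes were called higher. The differences were 4.11 ± 0.08 for Tdrd12, 3.12 ± 0.19 for Mael, 2.85 ± 0.15 for Sycp3, 1.603 ± 0.08 for Hormad1, 1.41 ± 0.11 for Tex19.1, 1.23 ± 0.07 for Ddx4 and 1.05 ± 0.12 for Dazl. The largest limma adjusted p of these 7 was 5.2e-05. The Dazl call was lost without astrocyte iPSC replicate 1, at 0.86. MEF iPSCs over day 6 cells had 2 of 8 called higher, Mael (2.28 ± 0.19) and Tdrd12 (1.07 ± 0.08), where 3.18% of all genes were. Ddx4 was at 0.99 ± 0.07 there. Without MEF iPSC replicate 1, Tdrd12 was at 0.97 and Ddx4 at 1.01, so that Ddx4 was called in place of Tdrd12. Ddx4 was also called without day 6 replicate 1, at 1.01.

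Against neural stem cells, astrocyte iPSCs again had 7 of 8 members called higher, where 5.03% of all genes were, with Sycp1 the exception. Dazl lost its call there without astrocyte iPSC replicate 1, at 0.92. MEF iPSCs had 2 of 8 called higher than neural stem cells, Mael (2.29 ± 0.21) and Tdrd12 (1.01 ± 0.09), where 4.63% of all genes were. Without MEF iPSC replicate 1, Tdrd12 was at 0.91 and Mael alone was called.

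The 2 iPSC groups were then set against each other. Astrocyte iPSCs over MEF iPSCs had 3 of 8 members called higher, Tdrd12, Sycp3 and Hormad1, and 0 lower, where 0.461% of all genes were called higher. Tdrd12 differed by 3.04 ± 0.09 (limma adjusted p = 2.1e-08), the largest difference of all 19938 genes in this direction, and Sycp3, by 2.30 ± 0.16 (limma adjusted p = 2.5e-05), ranked 6. Hormad1 differed by 1.07 ± 0.09 (limma adjusted p = 6.4e-05), and by 2.23 ± 0.13 on its other probe set. The Hormad1 call was lost without astrocyte iPSC replicate 1, at 0.96, and without MEF iPSC replicate 2, at 0.98.

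Of the others, Mael was higher by 0.84 ± 0.21 (limma adjusted p = 0.040), Tex19.1 by 0.67 ± 0.12 (limma adjusted p = 0.0064) and Dazl by 0.61 ± 0.13 (limma adjusted p = 0.023), all under the fold limit. Mael passed it without astrocyte iPSC replicate 2, at 1.29, and was at 0.39 without replicate 1. For Ddx4 the difference was 0.23 ± 0.08 (limma adjusted p = 0.12), with a 95% interval of 0.07 to 0.40. Sycp1 went the other way, at -0.52 ± 0.07 (limma adjusted p = 0.0015).

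**Figure D3:**
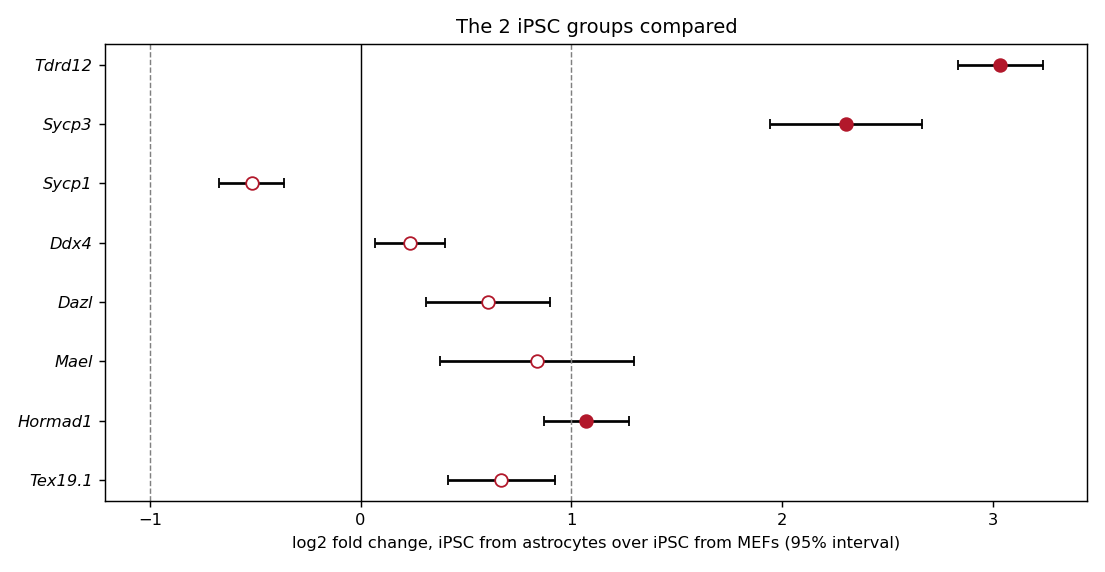
Log2 fold change of astrocyte iPSCs over MEF iPSCs (horizontal axis) for each member with its 95% interval; filled points were called and dashed lines mark the fold limit of 1 each way. Tdrd12 lies at 3.04 and Sycp3 at 2.30, and Sycp1 alone lies below 0, at -0.52.

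The order of the group means began with astrocyte iPSCs and then MEF iPSCs in 7 of the 8 members, and with MEF iPSCs in Sycp1. Among day 6 cells, neural stem cells and astrocytes, no neighbours in that order passed the test in any member. The step from MEF iPSCs to the next group below them passed for Tdrd12 and Mael. Within the astrocyte iPSCs, all 8 members were higher in replicate 1 than in replicate 2, with a mean over the members of 7.20 and 6.90. The fibroblast markers ran the other way, at 64.64 in replicate 1 and 71.05 in replicate 2, and Lum, a matrix proteoglycan of fibroblasts, stood at 7.36 and 8.63. In the MEF iPSCs, whose fibroblast sums were 63.66 and 63.17, 6 of 8 members were higher in replicate 1. The share of all genes higher in replicate 1 was not counted, so neither count can be read as particular to the members. The part of feeder cells in these differences was not tested.

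Other genes of the same programmes were counted in lists. The 9 lists of germline and 2-cell embryo genes held 103 measured genes that are no members. Of these, 28 were called higher and 2 lower in astrocyte iPSCs over astrocytes, or 27.2% higher against 9.44% of all genes. Those called higher include genes that pluripotent cells also express, Dppa2 and Dppa4 among them, so the share is not of germline genes alone. In MEF iPSCs 19 were higher and 2 lower, or 18.4% higher against 8.71% of all genes. In day 6 cells 3 were higher and 2 lower than in astrocytes, or 2.9% higher against 6.75% of all genes. Astrocyte iPSCs over MEF iPSCs gave 6 of the 103 higher and 0 lower, or 5.8% higher against 0.461% of all genes. For the single lists that follow, the same shares of all genes called higher over astrocytes hold. They are 9.44% in astrocyte iPSCs, 8.71% in MEF iPSCs and 6.75% in day 6 cells.

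The synaptonemal complex and axis list had 6 of 12 genes higher and 0 lower in astrocyte iPSCs over astrocytes, with a median of 0.71, and 3 higher in MEF iPSCs with a median of 0.36. Six6os1, a central element protein (4930447C04Rik on the array), rose by 3.43 ± 0.09 in astrocyte iPSCs and was higher there than in MEF iPSCs by 1.52. Syce2, another central element protein, rose by 2.67 ± 0.11. Syce2 was also the only gene of the list called higher in day 6 cells over astrocytes (1.09), and it was at 6.99 ± 0.18 (SD, n = 3) in astrocytes. It was likewise called higher in neural stem cells over astrocytes (1.18), and day 6 cells over neural stem cells were at -0.10. The cohesin subunit Smc1b (1.41 ± 0.16) and the axis protein Hormad2 (1.13 ± 0.09) also rose in astrocyte iPSCs.

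The meiotic recombination list had 3 of 15 higher and 0 lower in astrocyte iPSCs over astrocytes (median 0.45), and 3 higher in MEF iPSCs (median 0.26). Hsf2bp, a partner of BRCA2 in meiosis, rose by 2.79 ± 0.09 in astrocyte iPSCs, Rec114, needed for meiotic DNA breaks, by 1.997 ± 0.11, and the recombinase Dmc1 by 1.13 ± 0.09. Rec114 was higher in astrocyte iPSCs than in MEF iPSCs by 1.30. Mei4, a partner of Rec114 in break formation, was at 0.87 ± 0.08 in astrocyte iPSCs and was called in MEF iPSCs, at 1.30. Of the 4 genes of meiotic entry, Meioc, which lets germ cells go on through meiotic prophase, rose in astrocyte iPSCs (1.72 ± 0.16) and no other did (median 0.40). The list had 0 called in MEF iPSCs (median 0.52). Stra8, the retinoic acid-induced gatekeeper of meiosis, was at 0.19 ± 0.07 in astrocyte iPSCs and 0.21 in MEF iPSCs, and Ythdc2 and Zfp541 were at 0.62 and 0.09 in astrocyte iPSCs.

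The piRNA list had 2 of 17 higher and 2 lower in astrocyte iPSCs over astrocytes, with a median of 0.10, where 9.44% of all genes were higher and 11.4% lower, so its share was near that of all genes. MEF iPSCs had 1 higher and 2 lower, with a median of 0.09. Piwil2, a Piwi protein of the male germline, rose by 1.88 ± 0.10 in astrocyte iPSCs and was higher there than in MEF iPSCs by 1.13. Rnf17, a Tudor domain protein of male germ cells, rose by 1.11 ± 0.10 in astrocyte iPSCs and by 1.75 in MEF iPSCs. Tdrkh and Tdrd7, Tudor domain proteins, fell by 1.65 ± 0.12 and 1.59 ± 0.10 in astrocyte iPSCs, and they also fell by 1.38 and 1.72 in day 6 cells over astrocytes.

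The germ cell specification list, several genes of which pluripotent cells also express, had 7 of 13 higher and 0 lower in astrocyte iPSCs over astrocytes (median 1.28) and 6 higher in MEF iPSCs (median 0.70). Lin28a, an inhibitor of let-7 microRNA processing, rose by 3.39 ± 0.10 in astrocyte iPSCs, and Dppa3 (Stella), a protector of methylation marks in the zygote, by 2.17 ± 0.16. In day 6 cells over astrocytes 2 of 13 were higher, Ifitm1 (2.57) and Tfap2c (1.51). The list of other testis and germline genes had 6 of 13 higher in astrocyte iPSCs (median 0.64) and 4 in MEF iPSCs (median 0.26). Dppa2 and Dppa4, paired chromatin proteins of pluripotent cells, rose by 4.86 ± 0.11 and 2.63 ± 0.11. Usp26, a ubiquitin protease of the testis, rose by 3.27 ± 0.19 and Tex13b by 1.89 ± 0.15, and both were higher in astrocyte iPSCs than in MEF iPSCs, by 1.66 and 1.63.

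Oocyte genes had 3 of 14 higher in astrocyte iPSCs over astrocytes (median 0.05) and 2 in MEF iPSCs (median 0.03). They were Ooep (3.18 ± 0.14), an oocyte protein of the early embryo, Sohlh2 (1.93 ± 0.14), a germ cell transcription factor, and in astrocyte iPSCs alone Zp3 (1.65 ± 0.09), a protein of the egg coat, which was higher there than in MEF iPSCs by 1.28. Nlrp5, a maternal-effect protein of the oocyte, was at 0.13. Spermatid genes had 0 of 12 called in limma in either iPSC group (medians 0.03 and 0.06), with Ldhc, the testis lactate dehydrogenase, the farthest from 0 in astrocyte iPSCs, at 0.72 ± 0.10. Prm1, a protamine, was at 0.11. The 3 measured genes of the list for the 2-cell embryo had 0 called (medians 0.07 and 0.10), and the other 6 entries, Zscan4 genes among them, had no single-symbol match here.

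Repressors of germline genes had a median above 0 over astrocytes in all 4 other groups. Of 20, 12 were higher and 1 lower in astrocyte iPSCs over astrocytes (median 1.26), where 9.44% of all genes were higher, and 11 were higher in MEF iPSCs (median 1.18), where 8.71% were. Over astrocytes, 8 were also higher in day 6 cells (median 0.75), where 6.75% of all genes were, and 6 in neural stem cells (median 0.66), where 6.49% were, and 0 of 8 members were called in either. Over day 6 cells, 3 of 20 were higher in astrocyte iPSCs (median 0.20) and 2 in MEF iPSCs (median 0.10). Dnmt3b, a de novo DNA methyltransferase, rose by 4.51 ± 0.09 in astrocyte iPSCs and was at 0.74 in day 6 cells. Pcgf6, a subunit of the E2F6 and MGA complex, rose by 2.71 ± 0.10 in astrocyte iPSCs and by 1.78 in day 6 cells. The chromatin remodeller Hells rose by 3.43 ± 0.20 in astrocyte iPSCs and by 2.46 in day 6 cells, and Uhrf1, the partner of maintenance methylation, by 2.40 ± 0.14 and 2.17. Between the iPSC groups 0 of 20 were called in limma, and the median was 0.08.

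All 10 pluripotency genes were higher in both iPSC groups than in astrocytes, with medians of 4.89 and 4.32. Between the iPSC groups 1 of 10 was called, Zfp42 (Rex1), at 1.96 higher in astrocyte iPSCs, and the median was -0.06, while the members had a median of 0.75. In the fibroblast list 1 of 8 genes, Lum, was called between the iPSC groups, 1.99 higher in astrocyte iPSCs. The list's median over astrocytes was 1.07 in astrocyte iPSCs and 0.67 in MEF iPSCs, and -0.78 in day 6 cells. Of 7 germ cell markers in these lists that are no members, Dppa3 and Kit were called higher over astrocytes in both iPSC groups, Kit at 1.27 in astrocyte iPSCs and 1.14 in MEF iPSCs. Prdm1, a repressor needed for germ cell specification, was called in astrocyte iPSCs (1.62) and was at 0.70 in MEF iPSCs, and Stra8, Nanos2, Nanos3 and Dnd1 were called in neither. These 7 leave out other genes of the germ cell specification list. Of those, Prdm14, Tfap2c, Ifitm1 and Lin28a were called higher in both iPSC groups, and Nanos1, Ifitm3 and Boll in neither. Nanos2 stood at 5.44 and 5.65 in astrocyte iPSCs and 5.55 and 5.62 in MEF iPSCs, against 5.66 to 5.70 in astrocytes. Zbtb16, a further germ cell marker outside these lists, averaged 6.56 in astrocyte iPSCs, 6.73 in MEF iPSCs and 6.77 in astrocytes.

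**Figure D4:**
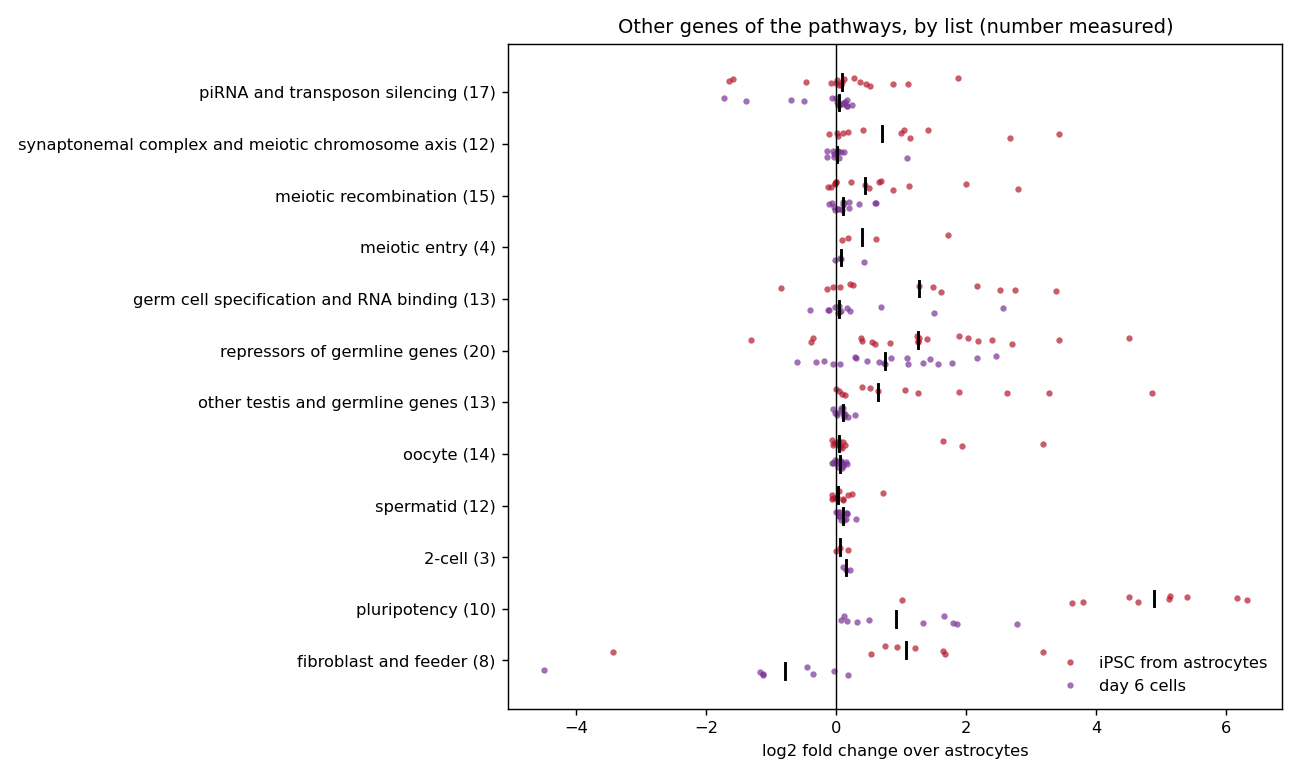
Log2 fold change over astrocytes (horizontal axis) of single genes (points) in the 12 lists (rows, number measured in brackets) in astrocyte iPSCs and day 6 cells; black bars are list medians. The pluripotency median is 4.89 in astrocyte iPSCs, and the spermatid median is 0.03.

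Likeness to the mean of the 8 members was ranked by Pearson's r over the 12 arrays. The ranking covered 6252 genes that are no members and whose group means span at least 1 on the log2 scale. Predicted genes (Gm followed by digits), Rik names, and olfactory and vomeronasal receptors were left out. Six6os1 (4930447C04Rik on the array) was thus not ranked. Of the genes ranked, the most alike was Zfp600, a zinc finger gene (r = 0.9992). Fmr1nb (0.9987), Mcf2 (0.9974), Slc39a4 (0.9961) and Usp26 (0.9951) followed. Zfp600 averaged 7.91 in astrocyte iPSCs, 6.24 in MEF iPSCs, 4.73 in day 6 cells, 4.59 in neural stem cells and 4.53 in astrocytes. Fmr1nb, Mcf2 and Usp26 lie on the X chromosome, Zfp600 on chromosome 4 and Slc39a4 on chromosome 15. The share of X genes among all genes compared was not counted, so no excess can be read from these. The arrays fall into iPSC and other groups, and such an r is a description of these arrays only.

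The values bear on dim genes in particular. The lowest deposited intensity was 20.2 units, so a constant added before deposit would shrink the log2 fold changes of members near that level, and whether one was added was not stated. With 16 units subtracted before log2, the difference of astrocyte iPSCs over astrocytes became 5.03 for Tdrd12, 3.94 for Sycp3, 2.02 for Ddx4 and 1.69 for Dazl. In MEF iPSCs that of Sycp1 became 1.71, in place of 0.80, and the number of members called over astrocytes there became 6 in place of 3, while the share of all genes called either way became 22.5% in place of 20.1%. In day 6 cells over astrocytes still no member was called, where 18.9% of all genes were. There Tex19.1 was at 0.35 (limma adjusted p = 0.041) and Hormad1 at 0.25 (limma adjusted p = 0.0504).

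**Figure D5:**
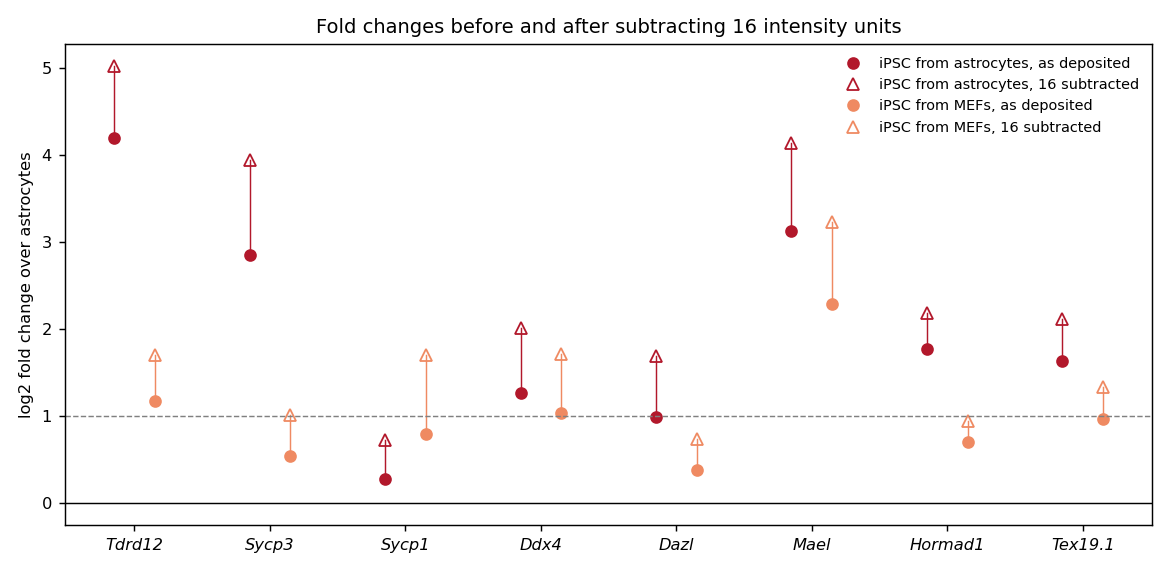
Log2 fold change over astrocytes (vertical axis) of each member in both iPSC groups, from the deposited values (circles) and with 16 units subtracted before log2 (triangles); the dashed line marks the fold limit of 1. Every triangle lies above its circle, and Sycp1 in MEF iPSCs is at 1.71 after and 0.80 before subtraction.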

How the data were processed

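Total RNA was amplified with the GeneChip WT PLUS kit and hybridized to 12 arrays. The authors deposited 1 intensity per probe set and array, made with RMA (robust multi-array averaging) per the submitters' processing notes, which name no version. These values are on a linear scale, 20.2 to 15436 units with array medians of 97.9 to 104.9, and log2 was taken of these deposited intensities. Of 28853 probe sets, 21789 carry a single symbol, 1621 several and 5443 none in the platform annotation. Each of the 19938 genes was read from its brightest single-symbol probe set by mean log2 intensity, and dim genes were kept. The file holds no detection calls, and the number of arrays limits the precision.

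Groups were compared in 10 pairs with limma 3.58.1 (R 4.3.3). All 12 arrays entered the fit, which had 7 residual degrees of freedom, or 10.9 after moderation, and used Benjamini-Hochberg adjustment over all genes. The fit was tested on simulated data. The members and lists were chosen with earlier results of these data known. Of 153 list entries, 141 were matched, 3 of them by RefSeq gene ID. The text names up to 4 genes per list by largest absolute fold change in astrocyte iPSCs over astrocytes, and genes called between the iPSC groups. A few germ cell markers were named after their values were seen (Nanos2, Nanos3, Dnd1, Kit, Prdm1 and Zbtb16), as were Prdm14, Nanos1, Ifitm3 and Boll. Alternatives on the values were averaging the probe sets of a gene, testing every probe set, dropping dim genes, subtracting 16 before log2, cyclic loess and median centring. Alternatives on the test were fitting the compared pair alone, a robust eBayes with a trend, array weights, a threshold of 0.01, dropping the fold limit, a block for replicate numbers, and omitting each array in turn. Figures were made with matplotlib 3.10.9 in Python 3.11.15.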

Additional observations from a re-analysis of the deposited data

Results flagged for a closer look

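For 3 members the rise over astrocytes differed between the iPSC groups by more than the fold limit. The test is the direct comparison of astrocyte iPSCs with MEF iPSCs given above, in which the shared astrocyte arrays cancel. By a limma adjusted p under 0.05 alone, 7 of the 8 members differed, as did 1150 of all 19938 genes. Of these 7 members, Sycp1 alone was lower in astrocyte iPSCs. For the 3 past the limit the difference was 3.04 on the log2 scale in Tdrd12, 2.30 in Sycp3 and 1.07 in Hormad1, higher in astrocyte iPSCs each time. Donor cell, reporter allele and line go with the 2 groups and cannot be told apart.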

How the results depend on the processing

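The members' calls turned mostly on the fold limit. With no fold limit, the members called became 8 in MEF iPSCs over astrocytes (3 with it), 8 over day 6 cells (2), 8 over neural stem cells (2), 7 in astrocyte iPSCs over MEF iPSCs (3) and 1 in day 6 cells over neural stem cells (0). All genes called in these comparisons became, in the same order, 10017, 5932, 8251, 1150 and 7655 of 19938. Over all the comparisons they ran from 1150 to 10173, against 148 to 4154 with the limit. With 16 subtracted before log2, MEF iPSCs had 6 members called over astrocytes, 5 over day 6 cells and 7 over neural stem cells, while all genes called became 22.5%, 7.49% and 14.2%, in place of 20.1%, 6.11% and 12.1%. Cyclic loess and median centring each left 1 member called in MEF iPSCs over neural stem cells. Leaving out each array in turn gave 6 to 7 members called in astrocyte iPSCs over astrocytes, over day 6 cells and over neural stem cells, 3 to 4 in MEF iPSCs over astrocytes, 2 to 3 over day 6 cells, 1 to 2 over neural stem cells and 2 to 4 in astrocyte iPSCs over MEF iPSCs, and 0 in the comparisons among the other groups. With the replicate number as a block (replicate block), Ddx4 in MEF iPSCs over day 6 cells was at 1.01, which made 3 members called in place of 2, and no other member's call changed. Same-numbered arrays of different groups had deviations from the group means that correlated at -0.10 to 0.41, over 0.1 in 11 of 21 pairs, against 4 of 36 pairs with different numbers. In a group of 2 arrays the deviations mirror each other, so the pairs are not independent and the 2 counts are tied. Astrocyte iPSC replicate 1 was at 0.158 with MEF iPSC replicate 1, for example, and at -0.158 with replicate 2. The labels state no shared origin, and none was tested. Not every same-numbered pair was over 0.1, the rule used for taking numbers as a pairing. No call of a member reversed under any alternative. Dim genes left out kept 5 of the 8 members, and Sycp1, Ddx4 and Dazl had no value there.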

Other observations

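Among the genes ranked for likeness above, those nearest to each member by Pearson's r over the 12 arrays differed between members. Sohlh2, a germ cell transcription factor, was nearest to Mael (r = 0.9944), and Zcwpw1, a reader of histone marks at meiotic recombination sites, to Dazl (r = 0.9861). For Sycp1, the member with its highest level in MEF iPSCs, it was Nxf7 (r = 0.9922), which averaged 5.86 in astrocyte iPSCs and 7.46 in MEF iPSCs, against 4.88 in astrocytes. For Tdrd12 it was Slc23a1 (0.9953), for Sycp3 Timm8a2 (0.9909), for Ddx4 Zfp640 (0.9953), for Hormad1 Zfp982 (0.9901) and for Tex19.1 Wfdc2 (0.9913). These are descriptions over arrays that fall into a few groups.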
